A study of Caenorhabditis elegans with 24 samples.

Results

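Recovery from L1 arrest was followed through 8 of the 24 mRNA-seq libraries of the series: 4 of larvae that had been given food for 1 h (F) and 4 of larvae that were kept without food for the same time (S), none of them exposed to ivermectin. A gene was included when it had a level above 1 CPM (its read count scaled to a common total of reads on genes) in at least 4 of these 8 libraries, which kept 14248 of the 44968 identifiers in the count files. All larvae were *Caenorhabditis elegans* of strain LRB269, which carries glc-1(pk54), avr-14(vu47), glc-3(ok321) and avr-15(vu227) in F and S alike. These alleles hit subunits of the glutamate-gated chloride channels that ivermectin opens, and the array dukIs10, which holds Phlh-8::GFP, Pmyo-2::mCherry and Pmyo-2::avr-15, returns AVR-15 under the pharyngeal muscle promoter of myo-2. Embryos from bleached adults hatched without food and arrested as first-stage (L1) larvae. F cultures received *Escherichia coli* HB101 at 25 mg/mL 24 h after the bleach, S cultures received none, both were kept at 22 °C, and both were frozen 25 h after the bleach. According to the study's methods the cultures without ivermectin held its solvent, DMSO. The other 4 groups were IvF and IvS, with and without food in ivermectin at 5 ng/mL, which the study used to block pumping of the pharynx, at 1 h and at 24 h, and only those at 1 h are used here. For this strain the study's methods elsewhere give a higher dose, chosen as the lowest that stopped eating. A check of feeding at 5 ng/mL is not described there. RNA came from whole larvae, so a lower value of a gene that is active in 1 tissue may come from fewer such cells or from less RNA per cell, which cannot be told apart. A multiply mutant, transgenic strain and a single time of 1 h bound what these values describe.

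L1 arrest is the state in which newly hatched worms wait for food. Larvae in arrest do not grow or divide their postembryonic blast cells, and they can live for weeks on stored fat and on material recycled by autophagy. Insulin-like peptides from sensory neurons and other tissues act on the receptor DAF-2, whose kinases AKT-1 and AKT-2 hold the FoxO factor DAF-16 out of the nucleus. With little insulin signal DAF-16 enters the nucleus and turns on genes of stress resistance, while AMP-activated kinase (AMPK) sets fuel use. When food arrives, cells rebuild ribosomes, the gut takes up nutrients, and blast cells prepare to enter the cell cycle.

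The 8 libraries held between 8690378 and 14139935 reads assigned to genes. Reads on ribosomal RNA genes took 1.33% to 2.37% of them in F, against 1.81% to 22.1% in S, the highest being S replicate 3. 2 libraries stood apart from their groups. Among genes that averaged 10 CPM or more in the group, F replicate 3 was at least 4-fold above all 3 other F libraries in 41 of 8659 genes, and S replicate 4 was at least 4-fold below the 3 other S libraries in 138 of 8738 genes and above them in 21. F replicate 4 was above in 9 and below in 16 genes, S replicate 3 above in 9 and below in 4, S replicate 1 below in 1, and the remaining 3 libraries in none. No sequencing batch was given in the labels for these 8 libraries, and the study's methods call the replicates biological. Notes supplied with the study mention batches of count tables but do not say which libraries each held, so no value within a batch can be given. For many but not all named genes whose fold change rests on F replicate 3 or S replicate 4, it is given with and without that library.

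**Figure D1:**
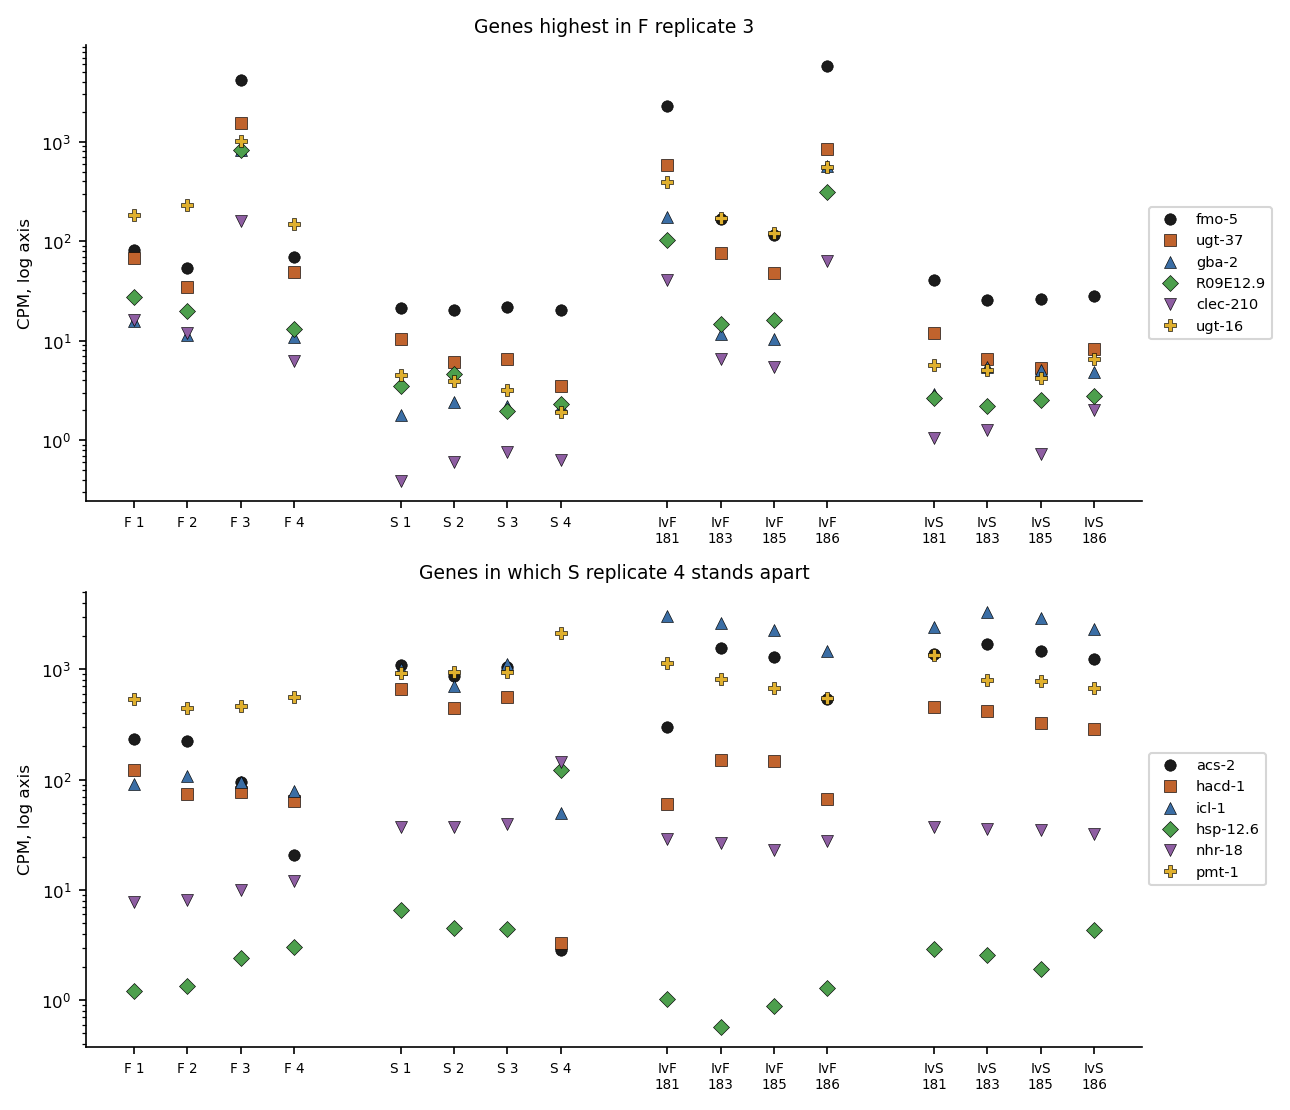
2 panels show levels (CPM, log axis) of 6 genes that were high in F replicate 3 and 6 genes that were far from the other S libraries in S replicate 4, with 1 marker per library in the groups F, S, IvF and IvS at 1 h. F and S are CPM of the TMM-scaled library total, and IvF and IvS are CPM of the plain library total. In the first panel 1 F marker and some IvF markers lie far above the others, and in the second panel 1 S marker lies far below (acs-2, hacd-1, icl-1) or above (hsp-12.6, nhr-18, pmt-1) the rest of its group.

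Feeding for 1 h changed about 3 in 10 of the measured genes, in both directions. With edgeR's quasi-likelihood test, a Benjamini-Hochberg adjusted p below 0.05 and a log2 fold change beyond 0.5 in either direction, 4395 of 14248 genes were called (30.8%), of which 2250 were higher in F (15.8%) and 2145 were lower (15.1%). These are the background shares against which the counts of gene families are read. All 4 F libraries lay above all 4 S libraries in 2618 genes (18.4%) and below them in 2257 (15.8%), and 3970 of the called genes had no overlap between the groups. A log2 fold change above 1 was found in 1251 of the genes called higher and one below -1 in 1285 of those called lower, while 71 and 72 genes passed 3 and -3. The split rests on the scaling. With library totals in place of TMM, 2590 genes were higher and 1290 lower, so that 66.8% of calls were higher rather than 51.2%, and the median over all tested genes was 0.16 on the log2 scale against -0.01 with TMM. Of 4088 tested genes whose exons overlap those of another gene, 1230 were called, and since the kit did not mark strand their reads cannot be assigned with certainty.

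**Figure D2:**
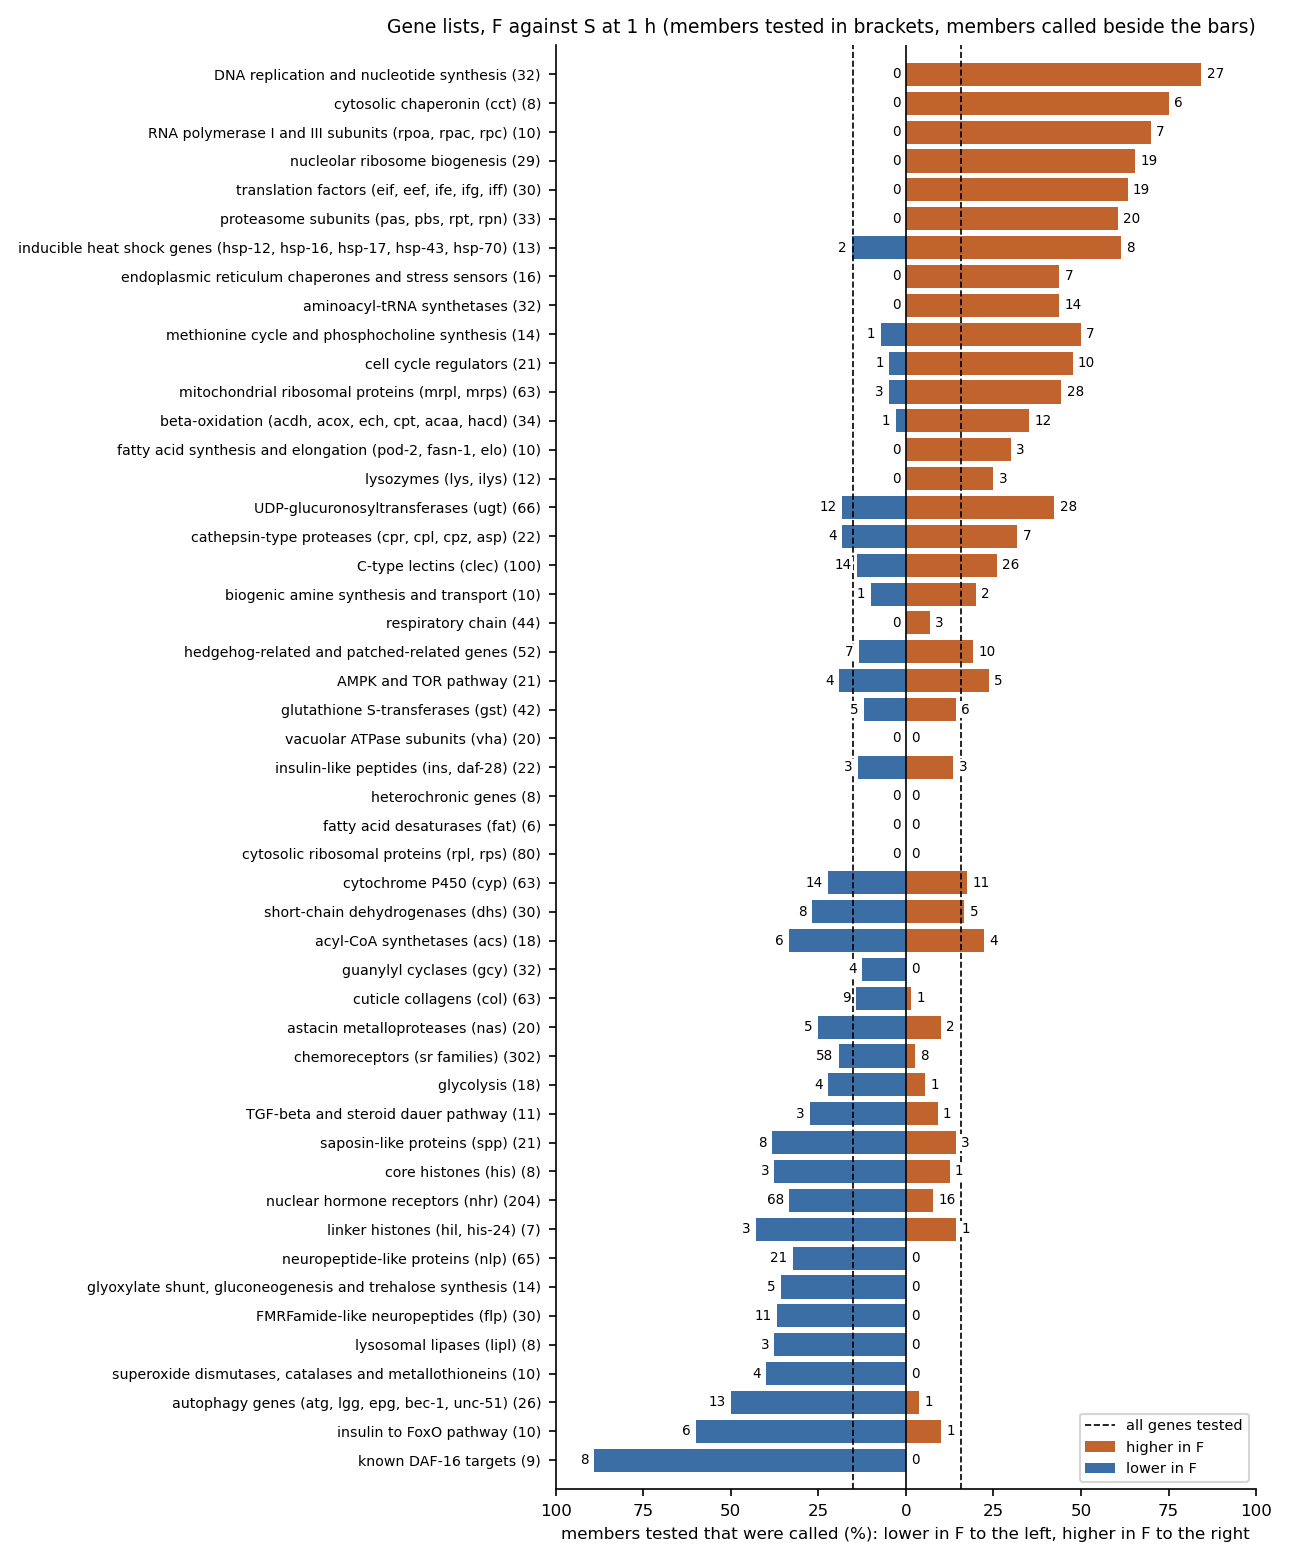
Bars show, for each gene list, the percentage of its tested members that were called higher in F (to the right) or lower in F (to the left) against S, and dashed lines mark the shares over all 14248 genes, 15.8% higher and 15.1% lower. Lists of DNA replication, chaperonin, RNA polymerase, nucleolar and translation genes reach farthest to the right, and DAF-16 targets, the insulin to FoxO pathway and autophagy reach farthest to the left.

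Among called genes whose groups did not overlap and averaged 10 CPM or more in the higher one, the 12 with the highest fold changes were enzymes of detoxification, a glucosylceramidase, a saposin-like protein, a lectin and a gene of no named function. spp-23, a member of the saposin-like family of membrane-active proteins of the gut, led with 487, 282, 278 and 385 CPM in F, against 2.45, 2.43, 2.97 and 0.531 CPM in S. Its log2 fold change was 7.41 (SE 0.47, adjusted p = 3.52e-05), and the lowest F library lay far above the highest S library. Of the other 11, ugt-16 (6.85), ugt-34 (6.71), ugt-63 (6.33), ugt-37 (5.97) and ugt-33 (5.15) encode UDP-glucuronosyltransferases, which attach sugars to foreign compounds, and values in brackets are log2 fold changes of F over S. The others were gba-2 (6.63), a glucosylceramidase, clec-210 (6.34), a C-type lectin, R09E12.9 (6.15), fmo-5 (5.71), a flavin-containing monooxygenase, cyp-29A3 (5.06), a cytochrome P450, and dhs-8 (4.97), a short-chain dehydrogenase. The size of 9 of these rests on F replicate 3. Without it, the log2 fold change was 5.78 (adjusted p = 0.000102) for ugt-16 and 3.21 (adjusted p = 0.00605) for cyp-29A3. ugt-34, clec-210 and ugt-33 are so low in S that they drop below the filter on low values when any F library is left out. With the genes of all 8 libraries kept in the test, their values without F replicate 3 were 5.96 (adjusted p = 0.000306), 4.24 (adjusted p = 0.000288) and 4.21 (adjusted p = 0.000275). ugt-37, gba-2, R09E12.9 and fmo-5 are described with the detoxification genes, and dhs-8 had 4.32 (adjusted p = 0.000829) without F replicate 4. Exons of ugt-37, clec-210 and gba-2 overlap another gene.

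By the same rule, the 12 genes that fell most included a linker histone, a small heat shock protein and several genes of no named function. hil-1, which encodes an H1 linker histone, had 8.07, 6.39, 12.65 and 9.29 CPM in F, against 278, 256, 309 and 642 CPM in S. Its log2 fold change was -5.35 (SE 0.39, adjusted p = 4.71e-05), or -4.93 without S replicate 4 with the genes of all libraries kept, and the highest F library was far below the lowest S library. W02D7.11 had 0.835, 0.309, 0.987 and 0.760 CPM in F, against 37.2, 21.5, 36.4 and 123.5 CPM in S, a log2 fold change of -6.20 (SE 0.65, adjusted p = 0.000166). C18H7.1 had 14.9, 21.03, 25.8 and 10.6 CPM in F, against 414, 345, 409 and 199 CPM in S, so that every S library stood many times above every F library, with a log2 fold change of -4.24 (SE 0.35, adjusted p = 6.44e-05). The other genes were the chemoreceptor srbc-20 (-4.72), F15A4.8 (-4.69), Y6G8.2 (-4.15), srpr-2.1 (-4.11), M01B2.13 (-4.08), hsp-12.6 (-4.07), F43C11.7 (-4.02), C17C3.3 (-3.98) and dao-6 (-3.98). Several of these values rest on 1 library. Without S replicate 4 the log2 fold change was -5.41 (adjusted p = 4.43e-06) for W02D7.11, -3.24 (adjusted p = 0.000536) for M01B2.13, -2.88 (adjusted p = 7.13e-05) for F43C11.7 and -3.35 (adjusted p = 7.52e-05) for dao-6, all smaller in size and all called. M01B2.13 had -4.85 (adjusted p = 0.00319) without F replicate 4. srbc-20 and F15A4.8 drop below the filter when any S library is left out, and with the genes of all 8 libraries kept they were called in each such fit. srpr-2.1 had 129 CPM in S replicate 3 and 3.03 to 12.9 CPM in the other S libraries. That library had 22.1% of its reads on ribosomal RNA genes, and the ribosomal RNA genes rrn-2.1 and rrn-3.1 stood apart there as well. Without S replicate 3 the log2 fold change of srpr-2.1 was -1.70 (adjusted p = 0.0287). Its call was lost without any 1 of the F libraries (adjusted p up to 0.0593). hsp-12.6, described with the DAF-16 targets, depended likewise on S replicate 4.

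Most genes that build ribosomes were called higher in F, and none of the cytosolic ribosomal proteins was. Of 29 nucleolar ribosome biogenesis genes, which process and assemble ribosomal RNA, 19 were higher in F and 0 lower, with a median log2 fold change of 1.14 against -0.01 over all genes. fib-1, the nucleolar methyltransferase fibrillarin, had 1102, 872, 779 and 882 CPM in F, against 219, 179.9, 225 and 85.6 CPM in S. The log2 fold change was 2.36 (SE 0.30, adjusted p = 0.000412), and every F library was at more than 3 times the level of every S library. nol-58, a partner of fibrillarin in the box C/D particle that guides RNA methylation, had 562, 501, 399 and 489.7 CPM in F, against 94.2, 114, 106 and 89.1 CPM in S, and nol-56, another core protein of that particle, had 614, 551, 419 and 492 CPM in F, against 116, 136, 123.3 and 75.1 CPM in S. Their log2 fold changes were 2.27 and 2.20, with the groups far apart in both. Of 10 subunits of RNA polymerases I and III, which make ribosomal and transfer RNA, 7 were higher and 0 lower (median 0.81). rpoa-2, the second largest subunit of polymerase I, had 216, 215, 155 and 184 CPM in F, against 47.5, 56.2, 48.03 and 42.9 CPM in S, a log2 fold change of 1.98 (SE 0.17, adjusted p = 6.97e-05) with no overlap between the groups. rpc-1, the largest subunit of polymerase III, had a log2 fold change of 1.38 (SE 0.20, adjusted p = 0.000889), and its exons overlap another gene.

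The 80 tested genes of cytosolic ribosomal proteins were very abundant, and none was called in either direction (median 0.09, 0 calls by this test). rpl-10, a protein of the large subunit, had 4094, 3225, 3149.9 and 4095 CPM in F, against 3669.6, 3041, 3822 and 3629 CPM in S. The groups overlapped throughout, and the log2 fold change was 0.04 (SE 0.18, adjusted p = 0.886). Mitochondrial ribosomal proteins differed from the cytosolic ones, with 28 of 63 higher, 3 lower and a median of 0.50. mrpl-15, of the large mitochondrial subunit, had 241, 209, 170.0 and 200.1 CPM in F, against 55.9, 67.4, 63.5 and 58.5 CPM in S, a log2 fold change of 1.74 (SE 0.16, adjusted p = 0.000105) with the groups far apart. mrps-11 was one of the 3 that fell, with 114, 103.9, 97.2 and 126 CPM in F, against 290.2, 286, 273 and 469 CPM in S and a log2 fold change of -1.58 (SE 0.22, adjusted p = 0.00056), and the highest value was that of S replicate 4. Exons of mrps-11 overlap another gene.

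**Figure D3:**
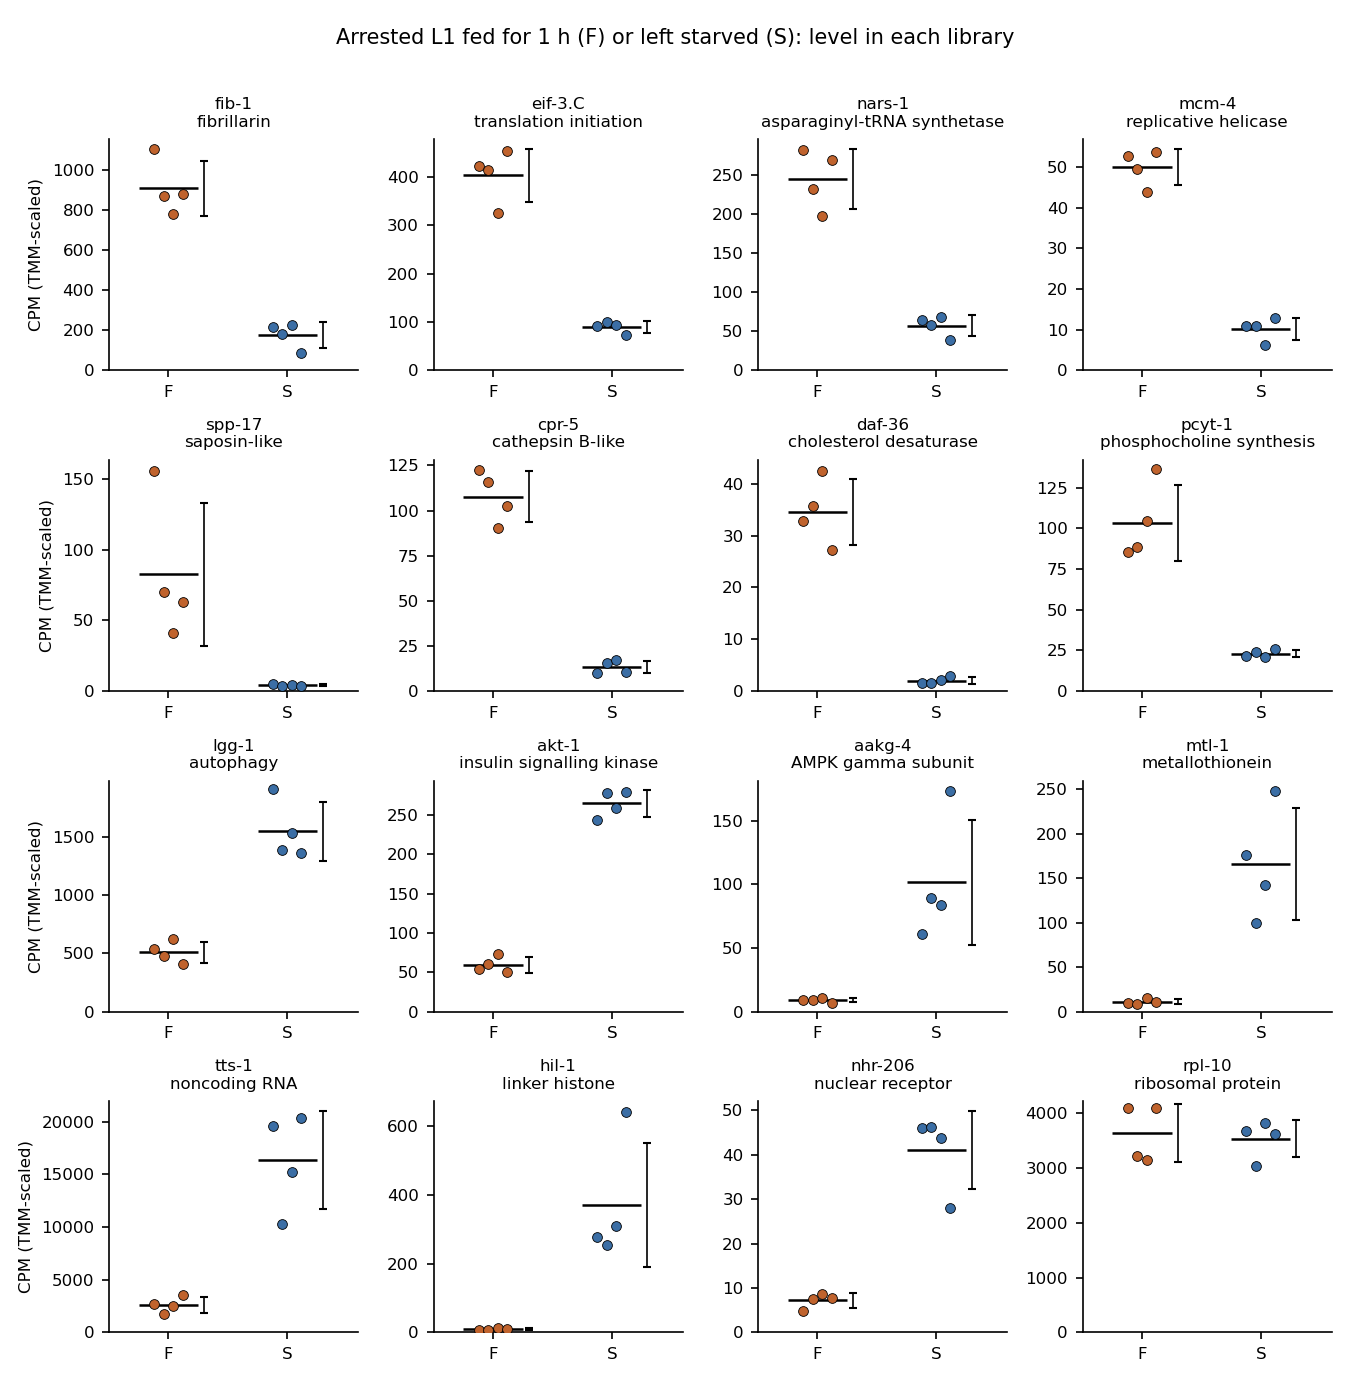
Each panel shows 1 of 16 genes with the level in every library (CPM of the TMM-scaled library total, linear axis), the 4 F libraries to the left and the 4 S libraries to the right; the line is the mean and the bar 1 SD. F and S do not overlap in 15 of the panels, and overlap for rpl-10.

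Many but not all factors of protein synthesis were called higher in F. Of 30 translation initiation and elongation factors, 19 were higher, 0 were lower, and the median was 0.88. eif-3.C, a subunit of initiation factor eIF3, had 422, 415, 326 and 453 CPM in F, against 92.8, 99.3, 93.6 and 72.7 CPM in S. Its log2 fold change was 2.17 (SE 0.18, adjusted p = 6.82e-05), with every F library far above every S library. ifg-1, the eIF4G scaffold that brings mRNA to the ribosome, had 385, 389.6, 355 and 379 CPM in F, against 91.3, 116, 102 and 83.0 CPM in S and a log2 fold change of 1.94, although its exons overlap another gene. The 3 most abundant factors, the elongation factors eef-1A.1 and eef-2 and the eIF5A protein iff-2, were not called and had log2 fold changes of 0.23, -0.02 and 0.12, although without S replicate 4 eef-2 had 0.62 (adjusted p = 0.0491). Of 32 aminoacyl-tRNA synthetases, which load amino acids onto tRNAs, 14 were higher and 0 lower (median 0.59), and without S replicate 4 the number higher was 22. nars-1, the asparaginyl enzyme, had 282, 232, 197 and 268 CPM in F, against 64.1, 58.4, 67.8 and 38.4 CPM in S, a log2 fold change of 2.098 (SE 0.22, adjusted p = 0.000161). kars-1, the lysyl enzyme, had 371, 326, 270.3 and 366 CPM in F, against 101.1, 95.3, 101.3 and 69.3 CPM in S and a log2 fold change of 1.86. In both the lowest F library was about 3 times the mean of the S libraries or more. The cytosolic chaperonin, which folds actin and tubulin, had 6 of 8 subunits higher and 0 lower (median 1.002). Its subunit cct-8 had 233, 215, 212 and 220.2 CPM in F, against 48.1, 69.99, 68.8 and 62.3 CPM in S, close together within each group and far apart between them, with a log2 fold change of 1.82 (SE 0.17, adjusted p = 9.51e-05).

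Genes of protein folding and breakdown were called higher more often than lower, and genes of autophagy lower more often than higher. Of 33 proteasome subunits 20 were higher and 0 lower, with a median of 0.58. rpn-5, of the regulatory lid, had 93.5, 74.4, 75.9 and 104.2 CPM in F, against 45.8, 42.7, 42.9 and 38.2 CPM in S, a log2 fold change of 1.04 (SE 0.16, adjusted p = 0.000974) with no overlap. Of 16 chaperones and stress sensors of the endoplasmic reticulum 7 were higher and 0 lower (median 0.48), with 1 lower without S replicate 1. hsp-4, the BiP chaperone that the unfolded protein response induces, had 47.1, 48.3, 62.8 and 168 CPM in F, against 13.96, 17.6, 14.2 and 24.8 CPM in S. F replicate 4 was far above the other F libraries, all F libraries were above all S libraries, and the log2 fold change was 2.21 (SE 0.42, adjusted p = 0.00351), or 1.59 (adjusted p = 0.00216) without F replicate 4. pdi-6, a protein disulphide isomerase, had 249, 242, 247 and 323 CPM in F, against 114, 114, 111 and 106 CPM in S and a log2 fold change of 1.26. Of the 13 inducible heat shock genes, 8 were higher, 2 were lower and the median was 2.37, and the number lower was 1 without any 1 of the F libraries or with library totals. hsp-17, a small heat shock protein, had 143, 89.6, 109.8 and 132 CPM in F, against 22.5, 19.0, 20.3 and 6.91 CPM in S, a log2 fold change of 2.79 (SE 0.34, adjusted p = 0.000319) with the groups far apart, and its exons overlap another gene. hsp-16.1 (identifier T27E4.8) had 120.0, 72.3, 99.6 and 78.4 CPM in F, against 11.9, 13.1, 3.297 and 15.4 CPM in S and a log2 fold change of 3.08. The hsp-16 genes are near-identical copies, so the split of reads between them is uncertain.

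Of 26 autophagy genes 13 were lower, 1 was higher, and the median was -0.82. lgg-1, the GABARAP-type ubiquitin-like protein that coats autophagosomes, had 533, 479.7, 623 and 410.2 CPM in F, against 1905, 1387, 1532 and 1357 CPM in S. lgg-2, its LC3-type relative, had 191, 198, 248 and 162 CPM in F, against 755, 702, 696 and 701 CPM in S. In both genes every F library was at less than 1 in 2 of every S library, and the log2 fold changes were -1.59 (SE 0.20, adjusted p = 0.000394) and -1.84 (SE 0.18, adjusted p = 0.000121). atg-18, which binds phosphoinositides on the growing membrane, had 91.8, 105, 129.9 and 92.1 CPM in F, against 278, 308, 277 and 363 CPM in S and a log2 fold change of -1.55 (SE 0.18, adjusted p = 0.000289). The member that rose was atg-5, part of the conjugation complex for LC3-type proteins, with 49.5, 42.7, 44.2 and 44.2 CPM in F, against 33.5, 28.5, 30.8 and 26.6 CPM in S and a log2 fold change of 0.60 (SE 0.14, adjusted p = 0.0083), and without S replicate 4 the number higher was 2.

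Most transcripts of the insulin to FoxO pathway and of DAF-16 targets were lower after feeding. Of 10 pathway genes 6 were lower and 1 was higher (median -0.96). The call of the higher one was lost without F replicate 2, 3 or 4 or S replicate 1, 2 or 3. akt-1, the kinase that phosphorylates DAF-16, had 54.5, 60.9, 72.8 and 49.9 CPM in F, against 243, 277, 259 and 279.5 CPM in S. Its log2 fold change was -2.15 (SE 0.17, adjusted p = 5.75e-05), with F at about 1 in 4 of S and with exons that overlap another gene. akt-2, the second such kinase, had 56.5, 57.4, 66.4 and 40.6 CPM in F, against 144, 146, 159 and 173 CPM in S, a log2 fold change of -1.49. ist-1, the insulin receptor substrate, had 8.63, 11.5, 9.24 and 8.70 CPM in F, against 22.6, 28.9, 24.4 and 56.8 CPM in S and a log2 fold change of -1.80, to which the high value of S replicate 4 contributes. daf-16 itself had 175, 184.8, 203 and 162 CPM in F, against 233, 319.8, 279 and 325 CPM in S. These groups did not overlap, the log2 fold change was -0.67 (SE 0.17, adjusted p = 0.0141), and the call was lost with library totals (exons of daf-16 overlap another gene). daf-2, the receptor, had 16.8, 33.5, 25.2 and 36.8 CPM in F, against 21.9, 82.7, 62.1 and 183.1 CPM in S, which overlapped. Its call, -1.64 (SE 0.53, adjusted p = 0.0386), was lost in 6 of the 8 fits without 1 library, those without F replicate 1, 2, 3 or 4 and without S replicate 2 or 4, where the adjusted p was up to 0.109. Without S replicate 4 the log2 fold change of daf-2 was -0.96, with the genes of all libraries kept.

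Of 9 tested DAF-16 targets 8 were lower and 0 higher, with a median of -2.94. These genes were listed because DAF-16 is known to raise them, in adult and dauer worms for the most part. mtl-1, a metallothionein that binds heavy metals, had 9.93, 9.18, 15.8 and 10.6 CPM in F, against 175, 99.1, 142 and 247 CPM in S, a log2 fold change of -3.86 (SE 0.31, adjusted p = 6.18e-05) with the groups at least 6-fold apart. tts-1, a long noncoding RNA that associates with ribosomes, had 2675, 1757, 2474 and 3519.8 CPM in F, against 19580.0, 10338, 15230.0 and 20349 CPM in S. All F libraries were below all S libraries, and the log2 fold change was -2.65 (SE 0.30, adjusted p = 0.000222). dod-3, a gene named for its regulation downstream of DAF-16, had 27.1, 8.15, 15.5 and 7.77 CPM in F, against 231, 101.2, 205 and 84.6 CPM in S and a log2 fold change of -3.41 (SE 0.49, adjusted p = 0.000734). hsp-12.6, a small heat shock protein of long-lived mutants, had 1.21, 1.34, 2.42 and 3.04 CPM in F, against 6.63, 4.55, 4.40 and 122 CPM in S. Its log2 fold change was -4.07 (SE 1.16, adjusted p = 0.0234), which rested on S replicate 4: without that library it was -1.36 (adjusted p = 0.0108), and without F replicate 1, 2, 3 or 4 the call was lost (adjusted p up to 0.0664).

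Of 22 insulin-like peptide genes 3 were higher and 3 lower, near the background, and without S replicate 2 or S replicate 4 the number lower was 5 or 6. daf-28, an agonist of DAF-2 made in sensory neurons, had 57.8, 39.6, 55.3 and 40.5 CPM in F, against 22.6, 15.5, 24.6 and 8.82 CPM in S, and all F libraries were above all S libraries, with a log2 fold change of 1.43 (SE 0.30, adjusted p = 0.00537). ins-6, another agonist, had 20.4, 12.99, 13.01 and 20.6 CPM in F, against 8.92, 4.05, 9.89 and 4.25 CPM in S, with no overlap and a log2 fold change of 1.30 (SE 0.33, adjusted p = 0.0136). ins-24 moved the other way, with 21.3, 15.6, 21.7 and 21.8 CPM in F, against 60.7, 38.6, 57.1 and 42.4 CPM in S and a log2 fold change of -1.31 (SE 0.20, adjusted p = 0.00092). The kinase module of energy shortage was lower in several subunits. Of 21 AMPK and TOR pathway genes 5 were higher and 4 lower, and the number higher was 3 without F replicate 2, F replicate 4 or S replicate 2 and 2 without S replicate 3. aakg-4, a nucleotide-binding gamma subunit of AMPK, had 9.18, 9.28, 11.03 and 7.097 CPM in F, against 60.8, 89.2, 83.6 and 173 CPM in S. The log2 fold change was -3.47 (SE 0.33, adjusted p = 0.000106), with F in the range of 10 CPM and S at many times that in every library. The catalytic subunits aak-1 and aak-2 had log2 fold changes of -1.82, adjusted p = 0.00473 and -1.57, adjusted p = 0.000289, aak-2 having 57.8, 56.5, 67.4 and 38.8 CPM in F, against 164, 151, 173 and 167 CPM in S. For aak-1, S replicate 4 (52.9 CPM) stood apart from the other S libraries. Exons of aakg-4, aak-1 and aak-2 overlap other genes.

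Steroid and receptor genes that bear on dauer formation and development split. Of 11 genes of the TGF-beta and steroid dauer pathway 1 was higher (2 without S replicate 4) and 3 were lower, and the number lower was 0 with library totals. The gene that rose was daf-36, the Rieske oxygenase that begins the making of dafachronic acid from cholesterol, with 32.8, 35.7, 42.5 and 27.3 CPM in F, against 1.499, 1.62, 2.09 and 2.87 CPM in S. F was more than 9 times S in every pair of libraries, the log2 fold change was 4.10 (SE 0.25, adjusted p = 3.31e-05), and its exons overlap another gene. Nuclear hormone receptors, a family of ligand-regulated factors much expanded in this worm, had 68 of 204 genes lower and 16 higher (33.3% and 7.84%, median -0.35), and 38 lower with library totals. nhr-206 had 4.92, 7.53, 8.70 and 7.69 CPM in F, against 45.9, 46.3, 43.9 and 27.95 CPM in S. nhr-18 had 7.70, 8.15, 10.05 and 11.9 CPM in F, against 37.1, 36.8, 39.1 and 144 CPM in S. In both the F libraries were near each other and below every S library, with log2 fold changes of -2.51 (SE 0.23, adjusted p = 0.000103) and -2.76 (SE 0.47, adjusted p = 0.00189), and nhr-18 was much higher in S replicate 4 than in the other S libraries. Without S replicate 4 its log2 fold change was -1.98 (adjusted p = 2.36e-05). One of the 16 that rose, nhr-12, had 17.4, 18.4, 38.6 and 24.6 CPM in F, against 9.07, 7.48, 6.59 and 4.04 CPM in S and a log2 fold change of 1.86 (SE 0.32, adjusted p = 0.00183).

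Genes of digestion and defence in the gut rose or fell member by member. Of 21 saposin-like genes 3 were higher and 8 lower, and 5 were lower without F replicate 2. spp-17 had 156, 70.1, 41.0 and 62.9 CPM in F, against 5.13, 3.54, 4.40 and 3.51 CPM in S, a log2 fold change of 4.30 (SE 0.42, adjusted p = 0.000116), while spp-2 had 6.12, 6.60, 9.33 and 18.3 CPM in F, against 81.3, 47.1, 71.0 and 60.9 CPM in S, a log2 fold change of -2.68 (SE 0.35, adjusted p = 0.000457). Neither gene had overlapping groups, so that members of this family stood far apart in opposite directions. Of 12 lysozyme genes, whose enzymes cleave bacterial walls, 3 were higher and 0 lower (median 0.33), with 1 lower without S replicate 4. ilys-5, an invertebrate-type lysozyme, had 64.1, 44.2, 24.8 and 46.3 CPM in F, against 9.86, 8.50, 7.36 and 5.31 CPM in S and a log2 fold change of 2.53 (SE 0.30, adjusted p = 0.000293). lys-2 had 501, 409, 337 and 430.2 CPM in F, against 142, 102, 128 and 14.9 CPM in S, and lys-1 had 1075, 766, 707 and 739.8 CPM in F, against 402, 307, 363 and 67.8 CPM in S. Both were lowest in S replicate 4 with log2 fold changes of 2.12 and 1.53, and the call of lys-1 was lost without F replicate 1, F replicate 2 or S replicate 2 (adjusted p up to 0.0676). Of 22 cathepsin-type proteases 7 were higher and 4 lower. cpr-5, a cathepsin B-like protease, had 122, 116, 90.1 and 103 CPM in F, against 10.02, 15.4, 17.1 and 10.6 CPM in S, a log2 fold change of 3.02 (SE 0.22, adjusted p = 4.64e-05). cpr-4, another such protease, had 694, 610.3, 503 and 564 CPM in F, against 117, 132, 100.9 and 13.7 CPM in S, with a log2 fold change of 2.71, whereas cpr-6 had 28.9, 30.7, 36.6 and 63.5 CPM in F, against 148, 139.9, 156 and 312 CPM in S, a log2 fold change of -2.24. In both, S replicate 4 lay far from the other S libraries, lowest for cpr-4 and highest for cpr-6, and its value enters the fold change. Of 100 C-type lectins, many of them induced by bacteria, 26 were higher and 14 lower, and 16 were higher without F replicate 1 or F replicate 2. clec-265 had 193, 109, 93.9 and 86.9 CPM in F, against 17.5, 16.8, 19.2 and 8.50 CPM in S, with no overlap and a log2 fold change of 2.96 (SE 0.33, adjusted p = 0.000223). None of the 20 subunits of the vacuolar ATPase, which acidifies lysosomes, was called, and 3 were lower without S replicate 4.

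Among genes of carbon metabolism, the list with the glyoxylate shunt had 35.7% of its tested members lower, against 15.1% of all genes. Glycolysis had 22.2% lower and the respiratory chain 0%. The glyoxylate shunt turns stored fat into sugar, and of 14 genes of this shunt, gluconeogenesis and trehalose synthesis 5 were lower and 0 higher (median -0.43), with 8 lower when S replicate 4 was left out. icl-1, the bifunctional enzyme of the glyoxylate shunt, had 91.7, 107, 94.2 and 78.3 CPM in F, against 1009, 710.0, 1115 and 49.5 CPM in S. S replicate 4 was below all F libraries and the other S libraries far above them, and the log2 fold change was -2.96 (SE 0.70, adjusted p = 0.01), or -3.34 (adjusted p = 4.83e-06) without S replicate 4. tps-1, which makes trehalose, had 57.99, 65.7, 62.1 and 77.1 CPM in F, against 146, 152, 155 and 119.2 CPM in S and a log2 fold change of -1.13 (SE 0.16, adjusted p = 0.000692). pck-2, a phosphoenolpyruvate carboxykinase, had 219.6, 315, 245 and 290.0 CPM in F, against 382, 589, 559.6 and 628 CPM in S and a log2 fold change of -1.01. No overlap was seen for tps-1 or pck-2, and exons of pck-2 overlap another gene. Of 18 glycolysis genes 1 was higher and 4 lower. The higher one was gpd-1, a glyceraldehyde phosphate dehydrogenase, with a log2 fold change of 0.73 (SE 0.24, adjusted p = 0.0398). That call was lost without F replicate 2, 3 or 4 or S replicate 1, 2 or 3, and near-identical copies of gpd-1 make its share of reads uncertain. Among the 4 that fell was pyk-2, a pyruvate kinase, with 42.3, 43.4, 34.4 and 47.7 CPM in F, against 157, 159, 165 and 206.4 CPM in S and a log2 fold change of -2.04 (SE 0.17, adjusted p = 6.47e-05). Of 44 respiratory chain genes 3 were higher and 0 lower, with 1 lower without S replicate 4.

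Fat breakdown genes did not move as one. Of 34 beta-oxidation genes 12 were higher and 1 lower (median 0.56), with 3 lower when S replicate 4 was left out. acox-1.1, an acyl-CoA oxidase of peroxisomes that also takes part in ascaroside pheromone synthesis, had 134, 112, 555 and 229 CPM in F, against 39.5, 35.6, 39.01 and 18.1 CPM in S. ech-9, an enoyl-CoA hydratase, had 25.9, 31.1, 19.6 and 82.2 CPM in F, against 4.18, 4.65, 3.85 and 2.55 CPM in S. All F libraries were above all S libraries in both genes, F replicate 3 was the highest for acox-1.1 and F replicate 4 for ech-9, and the log2 fold changes were 2.96 (SE 0.51, adjusted p = 0.00204) and 3.38 (SE 0.46, adjusted p = 0.00056), with an overlap of exons for ech-9. They were 2.27 (adjusted p = 0.00175) for acox-1.1 without F replicate 3 and 2.75 (adjusted p = 0.000342) for ech-9 without F replicate 4. acs-2, an acyl-CoA synthetase that fasting is known to induce, had 234.5, 225, 95.9 and 20.9 CPM in F, against 1088, 867, 1057 and 2.87 CPM in S, and hacd-1, a hydroxyacyl-CoA dehydrogenase, had 122, 74.1, 77.5 and 64.3 CPM in F, against 661, 444, 563 and 3.29 CPM in S. In S replicate 4 both were below every F library and in the other S libraries above every F library. Neither was called with all libraries (-2.39, adjusted p = 0.147, and -2.31, adjusted p = 0.0942), and without S replicate 4 their log2 fold changes were -2.80 (adjusted p = 0.0199) and -2.72 (adjusted p = 2.32e-05). Of 18 acyl-CoA synthetases 4 were higher and 6 lower (3 with library totals). Of 8 lysosomal lipases 3 were lower and 0 higher, but 1 lower without S replicate 1, S replicate 2 or S replicate 3 and 1 higher without S replicate 4. On the side of synthesis, 3 of 10 genes of fatty acid synthesis and elongation were higher and 0 lower. fasn-1, fatty acid synthase, had 409, 466, 414 and 479 CPM in F, against 177, 243, 217 and 143 CPM in S, about 2-fold apart with no overlap, and a log2 fold change of 1.18 (SE 0.20, adjusted p = 0.00173). elo-9, a fatty acid elongase, had a log2 fold change of 1.66 (SE 0.20, adjusted p = 0.000338). None of 6 fatty acid desaturases was called, and 1 was lower without S replicate 4.

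Genes of the methionine cycle and of phosphocholine synthesis, which supply methyl groups and membrane lipid, were higher in 7 of 14 cases and lower in 1, with a median of 0.65. Without S replicate 4 the number lower was 3. pcyt-1, an enzyme that makes CDP-choline for phosphatidylcholine, had 85.3, 88.4, 104.4 and 136 CPM in F, against 21.7, 23.97, 20.9 and 25.7 CPM in S. The groups were at least 3-fold apart, and the log2 fold change was 2.17 (SE 0.19, adjusted p = 6.96e-05). ahcy-1, which removes the S-adenosylhomocysteine left by methylation, had 1636, 1341, 1045 and 964 CPM in F, against 487, 533, 680.2 and 529 CPM in S and a log2 fold change of 1.16. cbs-1 and cth-2, which carry sulphur from homocysteine to cysteine, had log2 fold changes of 1.75, adjusted p = 0.000593 and 1.48, adjusted p = 0.000499, cth-2 having 1162, 1112, 712 and 1057 CPM in F, against 366, 346, 400.2 and 340.4 CPM in S and exons that overlap another gene. pmt-1, a phosphoethanolamine methyltransferase of the other route to phosphocholine, was the member that fell, with 542, 448, 466 and 556 CPM in F, against 921, 937, 951 and 2119.8 CPM in S and a log2 fold change of -1.29 (SE 0.29, adjusted p = 0.00817). S replicate 4 was at more than 2 times the other S libraries, and without it the log2 fold change was -0.89 (adjusted p = 0.0011).

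UDP-glucuronosyltransferases rose in more members than most families, with 28 of 66 higher and 12 lower (42.4% and 18.2%, median 0.64), and 7 lower with library totals. ugt-63 had 118, 114, 179 and 42.8 CPM in F, against 1.18, 2.02, 1.98 and 0.425 CPM in S. ugt-16 had 183.1, 231, 1018 and 148 CPM in F, against 4.50, 3.94, 3.19 and 1.91 CPM in S. In both the S libraries stood at a few CPM, the F libraries were higher by more than 20-fold, and the log2 fold changes were 6.33 (SE 0.55, adjusted p = 6.96e-05) and 6.85 (SE 0.75, adjusted p = 0.000204). ugt-58 had 301, 255, 314 and 313 CPM in F, against 84.3, 74.7, 84.6 and 83.3 CPM in S, a smaller difference of 1.86 with little spread. Of 63 cytochrome P450 genes 11 were higher and 14 lower, and the number higher was 6 without F replicate 3 and 7 without S replicate 2, S replicate 3 or S replicate 4. cyp-35C1 had 40.7, 45.5, 268 and 44.3 CPM in F, against 3.23, 4.45, 3.19 and 2.34 CPM in S, with a log2 fold change of 4.91 (SE 0.71, adjusted p = 0.000785), and cyp-35A5 had 10.6, 8.15, 48.6 and 7.69 CPM in F, against 0.868, 0.303, 0.549 and 0.744 CPM in S, with one of 4.88. F replicate 3 was highest in both. Without F replicate 3 the log2 fold change of cyp-35C1 was 3.72 (adjusted p = 0.000102). cyp-35A5 drops below the filter when any F library is left out, and with the genes of all 8 libraries kept it had 3.79 (adjusted p = 0.000253) without F replicate 3. Of 42 glutathione S-transferases, which conjugate glutathione to reactive compounds, 6 were higher and 5 lower. gst-1, of the pi-like type, had 261, 192, 212 and 397 CPM in F, against 56.02, 45.2, 64.5 and 77.9 CPM in S, with no overlap and a log2 fold change of 2.12 (SE 0.27, adjusted p = 0.000408). gst-21 had 27.4, 25.1, 87.4 and 36.2 CPM in F, against 5.92, 7.38, 5.06 and 4.15 CPM in S and one of 2.96. Of 30 short-chain dehydrogenases 5 were higher (3 without S replicate 4, 8 with library totals) and 8 lower. dhs-31 was one that fell, with 2.134, 3.3, 2.69 and 3.89 CPM in F, against 28.9, 17.1, 27.8 and 28.9 CPM in S and a log2 fold change of -3.09 (SE 0.26, adjusted p = 6.41e-05).

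F replicate 3 carried a set of these genes at levels far above the other F libraries. fmo-5 had 82.7, 53.4, 4164 and 69.6 CPM in F, against 21.3, 20.4, 21.6 and 20.2 CPM in S. The S libraries lay within 2 CPM of each other, 3 F libraries were above 50 CPM and F replicate 3 was far above all. The log2 fold change was 5.71 (SE 1.49, adjusted p = 0.0158), or 1.72 (adjusted p = 0.000397) without F replicate 3, and the call was lost without S replicate 1 (adjusted p 0.057) or S replicate 4 (0.1). ugt-37 had 67.6, 35.2, 1531 and 48.8 CPM in F, against 10.5, 6.07, 6.59 and 3.51 CPM in S, gba-2 had 15.9, 11.5, 822 and 10.9 CPM in F, against 1.81, 2.43, 2.20 and 2.23 CPM in S, and R09E12.9 had 27.3, 20.00, 838 and 13.1 CPM in F, against 3.55, 4.65, 1.98 and 2.34 CPM in S. Without F replicate 3 their log2 fold changes were 2.91 (adjusted p = 0.000863), 2.56 (adjusted p = 0.000259) and 2.68 (adjusted p = 0.00113), so that the direction and the call held while the size fell by 3 or more on the log2 scale. Without S replicate 4 their adjusted p values, and that of cyp-29A3, were 0.0688, 0.0861, 0.0814 and 0.0582, all above the threshold. The same genes were high in some IvF libraries: fmo-5 had 2309, 169, 115 and 5758 CPM in IvF, against 40.7, 25.8, 26.5 and 28.4 CPM in IvS, as CPM of the plain library total. The first and the last IvF library were far above the other IvF libraries, and all IvF libraries were above all IvS libraries. What F replicate 3 shares with those IvF libraries was not tested.

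DNA replication had the largest share of members called higher of all lists described here. Of 32 tested genes of DNA replication and nucleotide synthesis 27 were higher and 0 lower (84.4%, median 1.15), after 1 h of food. mcm-4, a subunit of the MCM helicase that unwinds origins, had 52.8, 49.4, 43.9 and 53.7 CPM in F, against 10.9, 10.8, 6.37 and 12.9 CPM in S. pcn-1, the sliding clamp PCNA, had 123.7, 108, 115 and 113 CPM in F, against 32.7, 36.1, 19.6 and 34.8 CPM in S. mcm-2, another helicase subunit, had 49.9, 55.9, 47.99 and 47.3 CPM in F, against 12.2, 14.1, 8.46 and 12.97 CPM in S. In each of the 3 genes the lowest F library was about 3-fold above the highest S library or more, with log2 fold changes of 2.28 (SE 0.21, adjusted p = 0.000103), 1.90 (SE 0.20, adjusted p = 0.000175) and 2.08 (SE 0.18, adjusted p = 6.96e-05), and exons of mcm-4 and mcm-2 overlap another gene. Of 21 cell cycle regulators 10 were higher and 1, cki-1, lower (median 0.72). cdk-1, the mitotic kinase, had 66.5, 53.8, 60.8 and 62.0 CPM in F, against 20.2, 20.7, 9.78 and 18.8 CPM in S, a log2 fold change of 1.80 (SE 0.23, adjusted p = 0.000398), and cyb-3, a B-type cyclin, had 88.4, 92.6, 137 and 93.3 CPM in F, against 44.8, 50.2, 14.1 and 42.5 CPM in S, a log2 fold change of 1.44 (SE 0.34, adjusted p = 0.0105). S replicate 3 was the lowest S library in both. cki-1, the inhibitor of cyclin-dependent kinases that holds blast cells in arrest, had 61.0, 49.4, 54.7 and 31.9 CPM in F, against 114, 73.3, 91.9 and 63.2 CPM in S. Its log2 fold change was -0.80 (SE 0.24, adjusted p = 0.0305), and the call was lost without F replicate 2, 3 or 4 or S replicate 1 or 3 (adjusted p up to 0.0726).

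Markers of germ cells were higher in F as well, and those of embryos and gametes in some members. Of 10 markers of the primordial germ cells, which also take up division after hatching on food, 6 were higher and 0 lower (median 0.99), none was at 0, and their summed level was 78.2 to 99.9 CPM in F, against 42.97 to 47.4 CPM in S. Of 11 tested markers of early embryos 3 were higher and 1 lower (median 1.06), with a summed level of 209.7 to 291 CPM in F, against 125 to 221 CPM in S. pos-1, a maternal RNA-binding protein of early embryos, had 54.5, 57.5, 83.9 and 58.4 CPM in F, against 35.6, 38.7, 6.59 and 21.3 CPM in S, and was lowest in S replicate 3. Of 13 tested markers of oocytes, yolk and sperm 3 were higher and 0 lower, with a sum of 115 to 158 CPM in F, against 96.0 to 164 CPM in S, and 11 of the 45 in the list had no read in any of the 8 libraries. The part of germ cells and of unhatched or dead embryos in the replication and cell cycle values was not tested. Core histones, which are made without poly(A) tails for the most part and are therefore poorly sampled, had 1 of 8 tested genes higher and 3 lower, among them his-37 with 321, 243, 256 and 273 CPM in F, against 818, 488, 679.9 and 503 CPM in S and a log2 fold change of -1.19, in a gene whose exons overlap another. Of 7 linker histones 1 was higher (2 without S replicate 4) and 3 lower (1 with library totals), hil-1 being far the most changed.

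Neuropeptide genes were called lower more often than the background share of 15.1%, though not in every fit without 1 library. Chemoreceptors (19.2% lower) and guanylyl cyclases (12.5% lower) lay near that share, and few genes of these lists were higher. Of 65 neuropeptide-like genes 21 were lower and 0 higher (median -0.53), with 8 lower without F replicate 2, 10 without F replicate 3, and 7 with library totals, and 1 higher without F replicate 4, S replicate 1 or S replicate 4. nlp-28, nlp-29 and nlp-27, peptides of one cluster that the epidermis also makes against fungi, led them. nlp-28 had 11.1, 8.15, 8.70 and 13.5 CPM in F, against 57.6, 36.1, 48.7 and 41.5 CPM in S, a log2 fold change of -2.14 (SE 0.22, adjusted p = 0.000143), and nlp-29 had 81.4, 65.2, 72.5 and 80.6 CPM in F, against 288, 159, 228 and 119.9 CPM in S, a log2 fold change of -1.41 (SE 0.26, adjusted p = 0.0029), while nlp-27 had one of -1.14. Of 30 FMRFamide-like peptide genes 11 were lower and 0 higher (median -0.61), and the number lower was 0 without F replicate 2, 1 without F replicate 3, 5 without F replicate 4, 3 without S replicate 1, 4 without S replicate 3, 16 without S replicate 2, 1 with library totals and 14 with DESeq2 size factors. flp-27 had 105, 71.9, 81.9 and 83.7 CPM in F, against 183.4, 114, 164 and 125 CPM in S, a log2 fold change of -0.78 (SE 0.20, adjusted p = 0.0144) that lost its call without F replicate 2 (adjusted p 0.052). Of 302 tested chemoreceptors, most of 1311 being too low to test, 58 were lower and 8 higher (19.2% and 2.65%), with 32 lower without S replicate 1, 33 without S replicate 3 and 38 with library totals, and the number higher was 4 without F replicate 1 or 2, 5 without F replicate 3 or 4 or S replicate 2 or 3, and 13 with library totals. sru-40 had 7.98, 9.07, 6.997 and 8.70 CPM in F, against 42.3, 29.8, 34.9 and 24.4 CPM in S, a log2 fold change of -2.01 (SE 0.20, adjusted p = 0.000129). Among those called higher was stl-1, with 57.5, 47.7, 42.1 and 54.3 CPM in F, against 28.1, 30.0, 26.2 and 22.96 CPM in S and a log2 fold change of 0.91. stl-1 was taken into the list by its symbol and is a stomatin-like gene, not a chemoreceptor. The counts of 302 tested and 8 higher include it. Of 32 guanylyl cyclases, many of them receptors of sensory neurons, 4 were lower and 0 higher, and 2 were lower without F replicate 1, F replicate 3 or S replicate 2, or 1 with library totals. tph-1, the tryptophan hydroxylase that makes serotonin, rose, with 10.3, 9.28, 10.05 and 10.8 CPM in F, against 3.47, 2.93, 4.84 and 4.04 CPM in S and a log2 fold change of 1.41 (SE 0.20, adjusted p = 0.000734), in a gene whose exons overlap another.

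Collagens of the cuticle had few calls at 1 h. Of 63 tested collagen genes 1 was higher (4 without S replicate 4, 0 without F replicate 2, S replicate 2 or S replicate 3) and 9 were lower (median -0.31). col-39 had 19.4, 24.2, 20.00 and 16.4 CPM in F, against 44.6, 53.2, 76.2 and 194 CPM in S, highest in S replicate 4, with a log2 fold change of -2.20 (SE 0.43, adjusted p = 0.00399), or -1.52 (adjusted p = 0.000212) without that library. Of 52 hedgehog-related and patched-related genes 10 were higher and 7 lower, and the number higher was 6 without F replicate 2 or 3, 5 without F replicate 4 or S replicate 2 and 4 without S replicate 3 (4 lower with library totals). ptr-3, a patched-related membrane protein, had 8.16, 11.4, 12.5 and 11.4 CPM in F, against 54.3, 62.5, 68.0 and 36.99 CPM in S and a log2 fold change of -2.35 (SE 0.22, adjusted p = 0.00011). Of 20 astacin metalloproteases 2 were higher (1 without F replicate 1, 2 or 3 or S replicate 2) and 5 lower (3 with library totals). Of 8 heterochronic genes, which time larval stages, 0 were called, with 1 higher without S replicate 4 and 1 lower without S replicate 1.

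Among the tested genes that the strain alters, glc-1 was the one called. avr-15, restored in the pharynx by the transgene, had 1116, 1118, 1043 and 976 CPM in F, against 891, 1041, 1025 and 931 CPM in S, which overlapped (log2 fold change 0.13 (SE 0.16, adjusted p = 0.561)). myo-2, the pharyngeal myosin whose promoter drives the transgene, had 204, 203, 245 and 183.3 CPM in F, against 201, 272, 385 and 406 CPM in S, which overlapped as well (log2 fold change -0.60 (SE 0.24, adjusted p = 0.081)), and it passed the test without S replicate 1 (-0.77 (adjusted p = 0.0202)). glc-1 had 9.74, 8.97, 11.3 and 19.0 CPM in F, against 85.8, 60.0, 75.9 and 81.1 CPM in S, and its log2 fold change was -2.62 (SE 0.25, adjusted p = 0.000117), with no overlap. avr-14 was not called and glc-3 was too low to test. Markers of gut, pharynx, neurons, hypodermis and muscle were all found, as labels of whole larvae imply. Of 11 intestine markers 3 were higher and 2 lower, with a sum of 2665 to 2823 CPM in F, against 1689 to 3649 CPM in S. Of 10 pharynx markers 2 were higher and 0 lower, with a sum of 1179 to 1342 CPM in F, against 1618 to 2062 CPM in S. Of 11 neuron markers 0 were called, with a sum of 2058 to 2269 CPM in F, against 2452 to 3427 CPM in S. The neuron and pharynx sums were lower in every F library than in every S library, and their part in the lower neuropeptide values was not tested. Of 7 hypodermis markers and 9 body wall muscle markers 1 each was lower, and hlh-1, a muscle transcription factor, is listed at 0 in all 8 libraries. The list of cytosolic ribosomal proteins, otherwise very abundant, also holds 1 gene at 0 in all 8. Whether such a 0 means that the RNA was absent was not tested.

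Set against larvae that met food in ivermectin, many growth genes differed, but none of the 80 cytosolic ribosomal proteins was called. The question here is which changes at 1 h are found when food is eaten and which also when it is only perceived. Feeding in ivermectin is taken to be blocked, as in the study. The test was an interaction in edgeR, the F minus S difference minus the IvF minus IvS difference over 16 libraries. The 2 differences share no library. The F and S set and the IvF and IvS set differ in ivermectin, in depth and in which cultures were grown together. These cannot be told apart. The sets differ in other measures as well. Reads shared by genes were 6.59% to 10.25% in F and S, against 3.32% to 3.68% in IvF and IvS at 1 h. Reads outside features were 2.67% to 3.7%, against 4.46% to 9.52%. myo-2 had 183.3 to 406 CPM in F and S, against 2693 to 3527 CPM of the plain library total in IvF and IvS. The cause of these differences was not tested. Of 17842 genes tested 1804 were called (10.1%), 973 with a higher value in F minus S (5.45%) and 831 with a lower one (4.66%). For reference, 607 genes were higher in IvF than in IvS (3.4%) and 353 lower (1.98%). Among nucleolar genes 18 of 29 had an interaction called above 0 and 0 had one called below 0, and their median difference was 1.14 in F minus S and 0.01 in IvF minus IvS. fib-1 had 372, 471, 478 and 385 CPM in IvF, against 319, 330.0, 321 and 320.2 CPM in IvS, as CPM of the plain library total, with all IvF libraries above all IvS libraries by less than 2-fold, and an interaction of 1.96 (SE 0.32, adjusted p = 0.00082) on the log2 scale. Of the translation factors 16 of 30, of the synthetases 14 of 32, of the mitochondrial ribosomal proteins 18 of 63, and of the replication genes 17 of 32 had an interaction called above 0, with 1 called below 0 among the mitochondrial ribosomal proteins and 0 in the other 3 lists. The median in IvF minus IvS was 0.115, 0.006 and -0.006 for the first 3 of these lists. For the replication genes it was 0.52, against 1.15 in F minus S, so both medians of that list lay above 0.

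**Figure D4:**
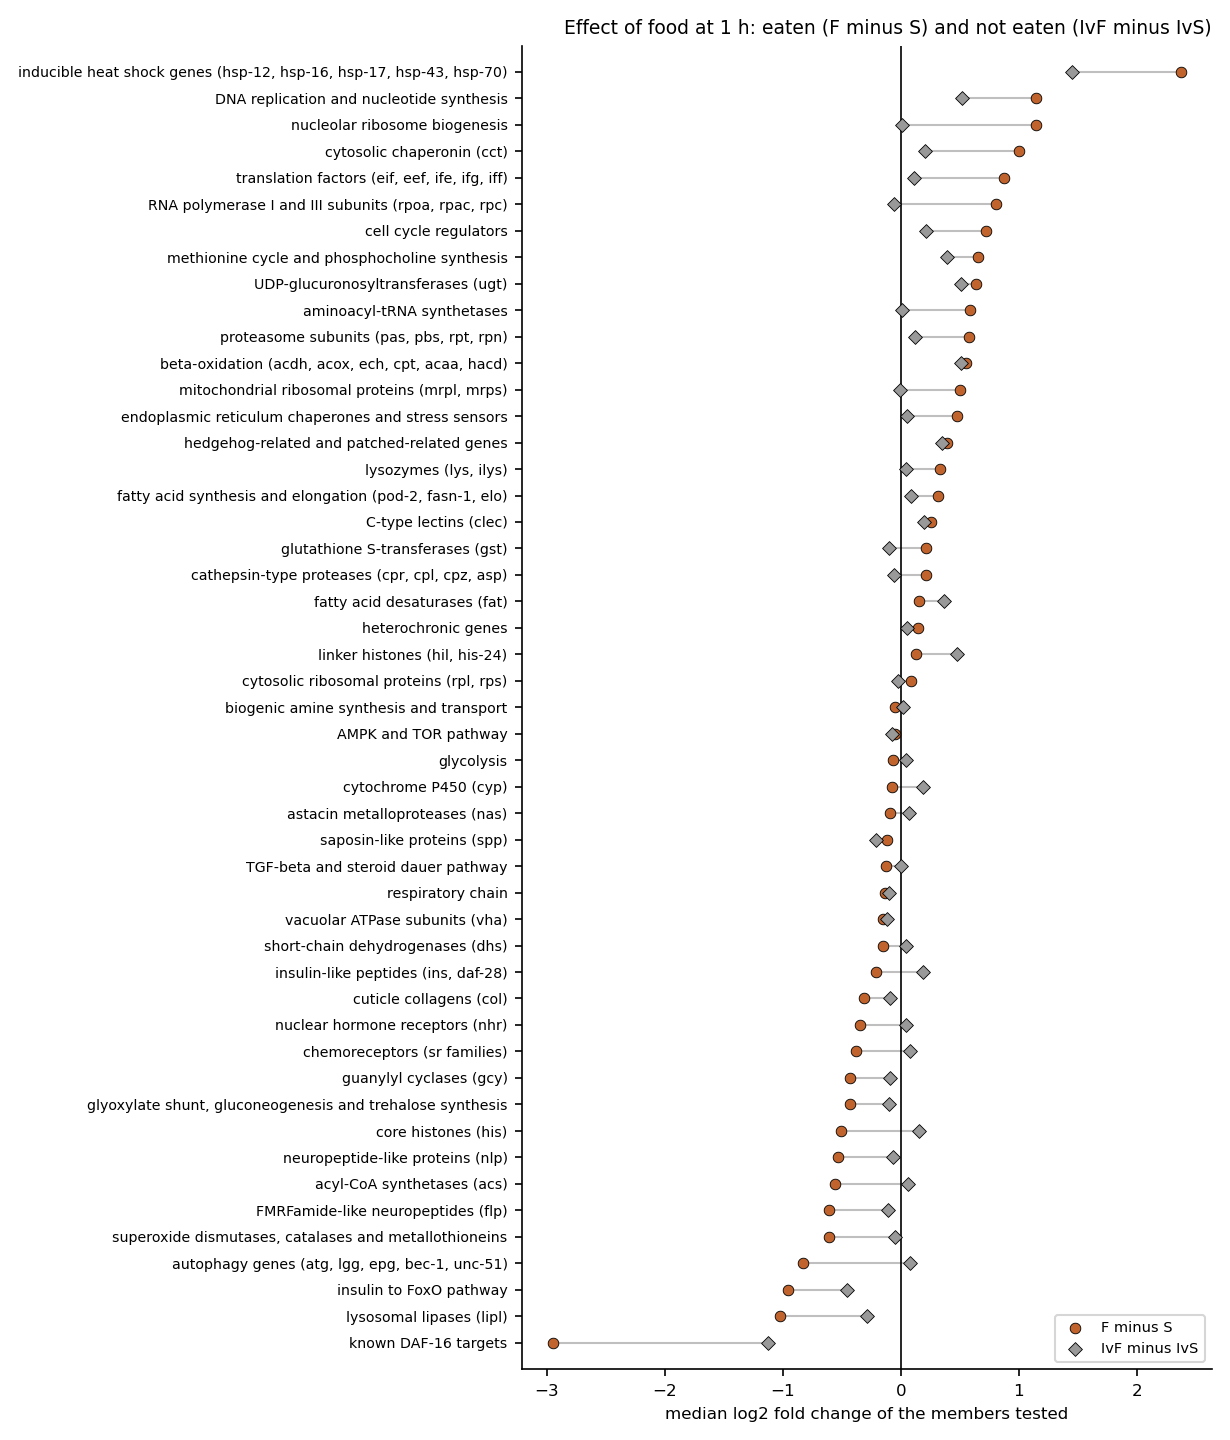
The median log2 difference of each gene list is shown for F minus S (circles) and for IvF minus IvS (diamonds) at 1 h. For nucleolar, translation, synthetase and autophagy lists the diamonds lie near 0 and the circles far from it, for UDP-glucuronosyltransferases and beta-oxidation both lie on the same side at a like distance, and for DAF-16 targets both lie below 0.

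Autophagy genes differed in the other direction, with 11 of 26 interactions called below 0 and 1 called above 0, and medians of -0.82 in F minus S and 0.08 in IvF minus IvS. lgg-2 had a log2 difference of -1.84 in F minus S and 0.21 (adjusted p = 0.674) in IvF minus IvS, and an interaction of -2.03 (SE 0.22, adjusted p = 3.04e-05). Nuclear hormone receptors had 39 of 204 interactions called below 0 and 2 called above 0, and nhr-206 had differences of -2.51 and -0.14 (adjusted p = 0.927). DAF-16 targets had 4 of 9 interactions called below 0 and 0 called above 0, with medians of -2.94 in F minus S and -1.13 in IvF minus IvS. For other genes the 2 differences had the same sign and the interaction measured a larger size in F minus S. mtl-1 had -3.86 in F minus S and -1.59 (adjusted p = 0.000899) in IvF minus IvS, with an interaction of -2.27 (SE 0.35, adjusted p = 0.000494). tts-1 had -2.65 and -1.13 (adjusted p = 0.00891), aakg-4 had -3.47 and -1.75 (adjusted p = 0.000398), daf-36 had 4.10 and 2.21 (adjusted p = 0.000264), and akt-1 had -2.15 and -1.32 (adjusted p = 7.11e-05), all with an interaction call. For a further set no interaction was found. daf-28 had 1.43 in F minus S and 1.11 (adjusted p = 0.0141) in IvF minus IvS, with an interaction of 0.33 (SE 0.36, adjusted p = 0.655), and tps-1 had -1.13 and -0.91 (adjusted p = 0.00138), with one of -0.20 (SE 0.21, adjusted p = 0.638). ugt-63 had 6.33 and 5.03 (adjusted p = 8.42e-06), with one of 1.33 (SE 0.59, adjusted p = 0.189), acox-1.1 had 2.96 and 3.31 (adjusted p = 0.00891), and cyb-3 had 1.44 and 1.997 (adjusted p = 0.00198). A p above the threshold does not show that the 2 differences were equal. Among genes of the gut and of detoxification, spp-17 had 4.30 in F minus S, 0.17 (adjusted p = 0.965) in IvF minus IvS and an interaction of 4.14 (SE 0.49, adjusted p = 7.38e-05), and gst-1 had 2.12, 0.04 (adjusted p = 0.989) and an interaction of 2.09 (SE 0.32, adjusted p = 0.000476). spp-23, which led the list of rises, had 7.41 and 1.86 (adjusted p = 0.00909), with an interaction of 5.57 (SE 0.57, adjusted p = 2.24e-05).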

How the data were processed

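Whole L1 larvae of strain LRB269 were measured by poly(A) mRNA-seq with a kit that does not mark strand. The authors aligned reads with Bowtie 1.1.2 to the WS210 genome with WS220 transcripts and counted them per gene with HTSeq, whose version and mode are not given in the sources used here. The deposited values are raw read counts, one file per library, with 44968 identifiers. Lines for reads outside features (2.67% to 3.70% of the total over features and those reads in the 8 libraries) or shared by genes (6.59% to 10.2%) were left out of library sizes and tests. The labels give 10 mL cultures in S-basal and the study's methods 20 mL in S-complete, which was not resolved.

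Genes above 1 CPM in at least 4 of the 8 libraries were fitted with edgeR 4.0.16 in R 4.3.3 (TMM, robust quasi-likelihood F test, Benjamini-Hochberg adjustment over all 14248 genes). A gene was called at an adjusted p below 0.05 and a log2 fold change beyond 0.5. Levels are CPM of the TMM-scaled library total. Such levels are not divided by gene length and are not compared between genes. The F and S libraries are 4 cultures each, and p-values measure the spread between them. The interaction was fitted the same way on the 16 libraries at 1 h. Depth was 8690378 to 14139935 reads on genes, and for F and S replicates with the same number, correlations of deviations were 0.0129 to 0.487, and 1 of 4 pairs lay below 0.1, so they were not treated as pairs. No 2 libraries differed by as little as sampling noise (chi-square per degree of freedom 16.9 or more within groups). Identifiers were matched to gene symbols with a gene table (44111 of 44968). The scripts were tested on simulated data.

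The gene families and lists, the rule for members and the named genes were chosen with earlier results of these data known. Named genes were taken from those chosen by rule: the 12 strongest rises and falls among called genes with no overlap that averaged 10 CPM or more in the higher group, up to 3 such rises and falls and the 3 most abundant members of each list, and key genes of the strain and of insulin signalling. gpd-1, the 1 member called higher in its list, was named after its values were seen. 1 further gene is not reported here. Alternatives were other tests (edgeR exact test, DESeq2 1.42.0, glmTreat), scalings and filters, a replicate block, and each library left out. 3 were added after seeing the data: ribosomal RNA left out, S replicates 3 and 4 left out together, and each library left out with the genes of all 8 kept in the test. No sequences are shown, since no sequence table was used here.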

Additional observations from a re-analysis of the deposited data

Results flagged for a closer look

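For each of 117 genes named in the report, the highest and the lowest of the 4 libraries of each group were compared with the nearest other library by Dixon's ratio, and 33 of 234 groups held a library beyond the 95% limit. A rate of 1 in 20 applies to independent, normally spread values of genes not chosen from these libraries. These genes were chosen from them, many by fold change, so the count cannot be set against that rate. F replicate 3 was the outlying library for 11 genes: ugt-16 (1018 CPM), gba-2 (822 CPM), clec-210 (160.3 CPM), R09E12.9 (838 CPM), ugt-37 (1531 CPM), fmo-5 (4164 CPM), ugt-33 (72.2 CPM), cyp-29A3 (118 CPM), cyb-3 (137 CPM), cyp-35A5 (48.6 CPM) and cyp-35C1 (268 CPM). S replicate 4 was so for 13 genes: W02D7.11 (123.5 CPM), hil-1 (642 CPM), M01B2.13 (44.9 CPM), hsp-12.6 (122 CPM), F43C11.7 (157 CPM), mrps-11 (469 CPM), pyk-2 (206.4 CPM), pmt-1 (2119.8 CPM), cpr-6 (312 CPM), nhr-206 (27.95 CPM), nhr-18 (144 CPM), aak-1 (52.9 CPM) and cbs-1 (42.6 CPM). The others were F replicate 1 for lys-1 (1075 CPM) and gpd-1 (12.62 CPM), F replicate 2 for ins-24 (15.6 CPM), F replicate 4 for hsp-4 (168 CPM) and pdi-6 (323 CPM), S replicate 1 for lgg-2 (755 CPM), S replicate 2 for dhs-31 (17.1 CPM) and ugt-58 (74.7 CPM), S replicate 3 for srpr-2.1 (129 CPM). All of these libraries stayed in the fits, and for many but not all of these genes the report gives the value without the outlying library. What set F replicate 3 and S replicate 4 apart was not tested.

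The difference between food eaten and food met in ivermectin, F minus S minus the difference IvF minus IvS on the log2 scale, passed the edgeR interaction test for 1804 of 17842 genes and for 58 of the 117 named genes, above 0 for 35 and below 0 for 23. Most named genes were chosen for a large F minus S difference, which is part of this interaction. Their share is therefore not comparable with that over all genes. Among genes of digestion, defence and detoxification it was 5.57 for spp-23, 4.14 for spp-17, 2.49 for ilys-5, 2.07 for lys-2, 1.39 for cpr-5, 2.09 for clec-265 and 2.095 for gst-1. Among genes of ribosome building it was 1.96 for fib-1, 1.94 for nol-58, 1.90 for nol-56, 1.92 for rpoa-2, 1.34 for rpc-1, 1.65 for mrpl-15 and -1.18 for mrps-11. Among translation and chaperonin genes it was 1.83 for eif-3.C, 1.70 for ifg-1, 1.72 for nars-1, 1.98 for kars-1 and 1.46 for cct-8. Among genes of protein folding, breakdown and autophagy it was 0.94 for rpn-5, 1.58 for hsp-4, 1.07 for pdi-6, 1.64 for hsp-17, -1.48 for lgg-1, -2.03 for lgg-2, -1.46 for atg-18 and 0.56 for atg-5. Among insulin, FoxO, AMPK, steroid and receptor genes it was -0.82 for akt-1, -0.82 for akt-2, -2.27 for mtl-1, -1.51 for tts-1, -1.71 for aakg-4, -1.66 for aak-1, -1.08 for aak-2, 1.91 for daf-36, -2.34 for nhr-206 and -2.38 for nhr-18. Among metabolic genes it was -2.77 for icl-1, 2.53 for ech-9, 1.26 for elo-9, 1.45 for pcyt-1, 1.26 for cth-2, 1.098 for cbs-1, 1.09 for ahcy-1 and -1.79 for dhs-31. Among replication and cell cycle genes it was 1.53 for mcm-4, 1.30 for mcm-2, 0.88 for pcn-1 and 1.102 for cdk-1. Among the other genes it was -3.45 for W02D7.11, -2.89 for hil-1, -3.004 for srbc-20, -3.49 for C18H7.1, -1.99 for Y6G8.2, -2.78 for F43C11.7, 0.93 for stl-1, -1.67 for ptr-3 and -1.70 for glc-1. These values compare sets of libraries that also differ in drug, depth, growth set and the shares of reads shared by genes or outside features, which cannot be told apart. That of icl-1 includes S replicate 4, in which icl-1 was far below the other S libraries. Of the 58 calls 50 were kept in every fit without 1 of the 16 libraries, and those of icl-1 (lost in 13 fits, adjusted p up to 0.0801), atg-5 (12 fits, up to 0.107), lys-2 (12 fits, up to 0.0949), hsp-4 (10 fits, up to 0.0776), pcn-1 (9 fits, up to 0.109), cdk-1 (4 fits, up to 0.0793), cpr-5 (3 fits, up to 0.0709) and F43C11.7 (3 fits, up to 0.0573) were not.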

How the results depend on the processing

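The count of called genes, 4395 with all libraries, lay between 3301 (without F replicate 2) and 4987 (without S replicate 4) when 1 library was left out, the number higher between 1730 and 2589 and the number lower between 1551 and 2398. With DESeq2 it was 4873, with the exact test 4562, with DESeq2 size factors in edgeR 4391, without a filter 3985, with a mean of at least 5 CPM 3706 and in a fit of all 24 libraries 5533. Without ribosomal RNA genes 4404 were called and without S replicates 3 and 4 together 3636, both chosen after seeing the data. A test against a log2 fold change of 0.5 itself (glmTreat) called 2250 genes, 1132 higher and 1118 lower, and 598 in the interaction, fewer because the test asks for more. Library totals in place of TMM left 1290 genes lower, with the median of all genes shifted to 0.16. With the replicate number as a block 5146 genes were called, 4285 of the 4395 among them, and 2590 in the interaction, and the block raised the number lower to 19 of 30 FMRFamide-like and 32 of 65 neuropeptide-like genes, 15 of 63 collagens (7 higher), 6 of 22 insulin-like peptides, 7 of 22 cathepsin-type proteases and 5 of 8 lysosomal lipases. 3 of 4 same-numbered pairs correlated best with each other, F replicate 3 with S replicate 1 (0.175) better than with S replicate 3 (0.0129), so the numbers were not taken to pair the cultures. The interaction count, 1804, lay between 1412 (without 1 of the IvS libraries) and 2575 (without S replicate 4) with 1 library left out. No direction of a called gene named here was reversed. eef-2, at -0.02 and not called, lay between -0.27 (without S replicate 1) and 0.63 (without S replicate 4, genes of all libraries kept) with 1 library left out, and was called higher at 0.62 without S replicate 4 and at 0.81 without S replicates 3 and 4. Keeping the genes of all libraries when 1 is left out was also chosen after seeing the data. Of 3247 values of single genes under these alternatives 3120 stayed on their side of the threshold, 112 lost a call, 12 gained one and the 3 of eef-2 gained one with a change of sign, and of 2574 interaction values 2440 stayed, 89 lost and 45 gained one. Of 1960 list counts 233 moved by over 1.5 times, and those of lists in the report that moved so through 1 library are given there. The causes of these moves were not tested. Depth limits the lowest genes: receptor families were tested in part only, and 302 of 1311 genes in the chemoreceptor list passed the filter.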

Other observations

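Calls were not spread evenly over the chromosomes. On chromosome V 620 of 3050 tested genes were lower in F (20.3%) and 435 higher (14.3%), whereas on the other 5 nuclear chromosomes 11.5% to 14.9% were lower. On chromosome X 224 of 2099 genes were higher (10.7%), the lowest share of the nuclear chromosomes, and 310 lower (14.8%). Chromosome I had the highest share of higher genes, 404 of 2142 (18.9%). By kind of gene, 2179 of 13556 protein-coding genes were higher and 2017 lower. Of 44 genes annotated as noncoding RNA 17 were lower and 3 higher (38.6% and 6.82%), and of 415 pseudogenes 76 were lower and 44 higher. Of 9 tested small nucleolar RNAs 5 were higher and 1 lower, with a median log2 fold change of 1.24. Of 5 ribosomal RNA genes 4 were lower and 0 higher, although poly(A) selection removes such RNA unevenly and S replicate 3 alone had 22.1% of its reads on them. The neighbours and strands of these noncoding genes were not examined, and the kit does not tell strands apart.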
